A study of Drosophila melanogaster with 5 samples.

Results

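The genes described here encode the proteins of the cytoplasmic ribosome that are named without a paralog letter, and they were followed in RNA of testis ribosomes of Drosophila melanogaster. Members were the genes whose symbol begins with RpL, RpLP or RpS followed by a number, leaving out symbols that end in a lower-case a or b, symbols with "-like", and RpL22, which has the testis paralog RpL22-like. This rule selected 68 of the 12847 genes of the deposited table, 43 of the large subunit (RpL and RpLP) and 25 of the small subunit (RpS). The rule is one of names, so it leaves out sta (the small subunit protein uS2) and Rack1, which also belong to the small subunit. No measured value enters the rule, though the members were chosen with earlier results of these data known.

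The ribosomes came from testes of adult males of the Batumi laboratory strain. In one group, 3 libraries, they were immunoprecipitated with antibodies to βNACtes, a germline form of NAC-β, one of the partners in NAC (nascent polypeptide-associated complex), a chaperone that sits at the exit of the ribosomal tunnel. In the other group, 2 libraries labelled control, RNA was taken from total ribosomes, and both fractions derive from pelleted ribosomes of 1000 frozen testes. The age is given as 1 to 2 without a unit, and the labels name neither an IgG or mock precipitation nor an antibody control. The table holds 1 mean per gene for each group, made by the authors, so each level below is a single value without an SD, no test between the groups was possible and no p-value is given. The unit was taken to be FPKM, a read level normalized for transcript length and library size, and the depth behind the values is unknown. All levels are of mRNAs, and the amounts of the proteins in the ribosomes were not measured here.

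A ribosome contains most of its proteins in a single copy, whereas the acidic stalk proteins P1 and P2 are present in more than one. The large subunit joins amino acids and holds the tunnel through which the nascent chain leaves, and the small subunit reads the mRNA. In Drosophila, loss of one copy of many ribosomal protein genes gives the Minute phenotype of slow development and short, thin bristles, and most of these genes share a pyrimidine-rich transcription start, the TCT initiator.

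All 68 members had lower values in the βNACtes IP than in total ribosomes. Their levels ranged over 154 to 1219 FPKM in the βNACtes IP, with a median of 537 FPKM, and over 385 to 5707 FPKM in total ribosomes, with a median of 2216 FPKM. No member was listed at 0, and all passed the filter on low values (a mean of both groups of at least 1 FPKM). Of all 9793 genes that passed this filter, 65.6% had the higher value in the IP. By level, 2 members were among the 100 highest of all genes in the IP and 41 in total ribosomes. Together they made up 4.58% of the summed FPKM of the βNACtes IP and 11.2% of that of total ribosomes. Without the 20 highest other genes, chosen after seeing the data, these shares were 5.62% in the IP and 21.1% in total ribosomes.

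**Figure D1:**
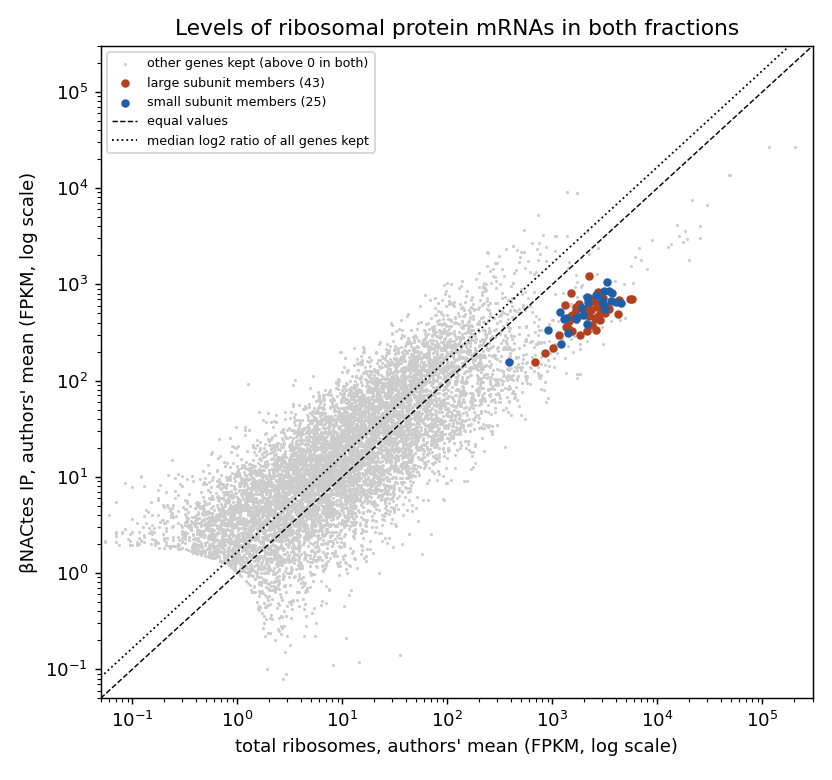
Authors' mean of each gene in the βNACtes IP (y axis, FPKM, log scale) against total ribosomes (x axis, FPKM, log scale), with grey points for other genes that passed the filter and were above 0 in both groups. The 43 large subunit genes (red) and 25 small subunit genes (blue) form 1 cluster below the line of equal values, and both colours run through it.

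A log2 ratio of the βNACtes IP over total ribosomes was computed after adding 0.1 to each FPKM, which understates the change of low genes. Across the 9793 genes that passed the filter the median log2 ratio was 0.73, and ratios are given relative to this median, with a gene called lower at −1 or less and higher at 1 or more. On this scale all 68 members were called lower (100%), against 29.2% of all 9793 genes. The members' median was −2.83, their lowest ratio −3.82 and their highest −1.59. With the values as deposited, without centring, 66 of 68 were at −1 or less, against 18.3% of all genes. With both columns scaled to the same sum (TPM) 46 of 68 were, against 8.75% of all genes. No member was called higher under any of these, against 26.4% of all genes on the median scale, 43.6% as deposited and 62.1% in TPM. Of all genes called in either direction, the higher ones were thus 47.5% on the median scale, 70.5% as deposited and 87.6% in TPM, where the median of all genes was 1.55. All 68 members were below 0 under each of these scalings.

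Marker genes of other cells were set beside the members. All 16 genes named as accessory gland proteins (Acp), which are made in a somatic gland of the male reproductive tract, were called lower as well, with a median of −2.58, and took 4.24% of the summed FPKM of the βNACtes IP and 10.0% of that of total ribosomes. In TPM their median was −1.01 and 8 of 16 were called lower. The list holds only genes of that name, so these shares need not be those of the whole gland. The highest genes of the 2 columns do not carry that name and so were outside the list, and their tissue was not examined here. CG18628, highest in total ribosomes, had 26714 FPKM in the IP and 204712.5 FPKM in total ribosomes (−3.67). Mst57Db, highest in the IP, had 26785 FPKM in the IP and 116534 FPKM in total ribosomes (−2.85). The germline markers were found for 9 of 10 symbols, with a median of −0.28 and sums of 536 FPKM in the IP and 277 FPKM in total ribosomes, but their median was 0.45 with values as deposited and 1.21 in TPM. The sum rested on bol, a regulator of meiosis, with 379 FPKM in the IP and 89.7 FPKM in total ribosomes, and without it the sums were 157 FPKM in the IP and 187 FPKM in total ribosomes, an alternative chosen after seeing the data. None of the 9 was at 0, and vas, the germline RNA helicase, had 3.32 FPKM in the IP and 2.52 FPKM in total ribosomes. For muscle, 8 of 9 markers passed the filter, with a median of 0.33 (1.06 as deposited, 1.89 in TPM) and sums of 178 FPKM in the IP and 152 FPKM in total ribosomes. Without Act57B, a muscle actin, these sums were 96.96 FPKM in the IP and 50.9 FPKM in total ribosomes. For somatic cyst and hub cells 4 of 5 passed, with a median of 0.47 (1.20 as deposited, 1.98 in TPM) and sums of 18.8 FPKM in the IP and 8.58 FPKM in total ribosomes. In the cyst list tj, a transcription factor of early cyst cells, was listed at 0 in total ribosomes. The part of these other tissues in the ratios of the members was not tested. The ratio compares precipitated with total ribosomes of bulk extracts. What the antibody recovered, the cells in each extract and the RNA per cell cannot be told apart in it.

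Level and length move with the ratio among all genes and were set beside the members. Among 439 other genes with a mean level at least that of the lowest member (269.6 FPKM), the median ratio was −1.02 and 50.1% were called lower. These genes share only that floor and are not matched in level. Their median was 484 FPKM in the IP and 469.5 FPKM in total ribosomes, against 537 FPKM and 2216 FPKM for the members. Without the ribosomal protein genes named with a or b, RpL22, RpL22-like and the mitochondrial ones, 428 genes remained, sta and Rack1 among them. Their median was −0.82 and 48.8% were called lower. Exonic length of the members ranged from 288 to 3835 bp with a median of 882 bp, and 34 of 68 fell in the shortest of 5 equally filled length classes (76 to 876 bp), where the members had a median of −2.79 and the other genes one of −0.63. In the next class (877 to 1374 bp) the medians were −2.87 for 28 members and −0.47 for the other genes. Within the members the ratio hardly followed length (Spearman's rho −0.14 with exonic length and −0.18 with the number of residues, 68 genes from the same 2 columns of means, given as a description). The longest member, RpL5 with 3835 exonic bp, was at −3.45, whereas the other genes in its length class (3235 to 58996 bp) had a median of 0.98.

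**Figure D2:**
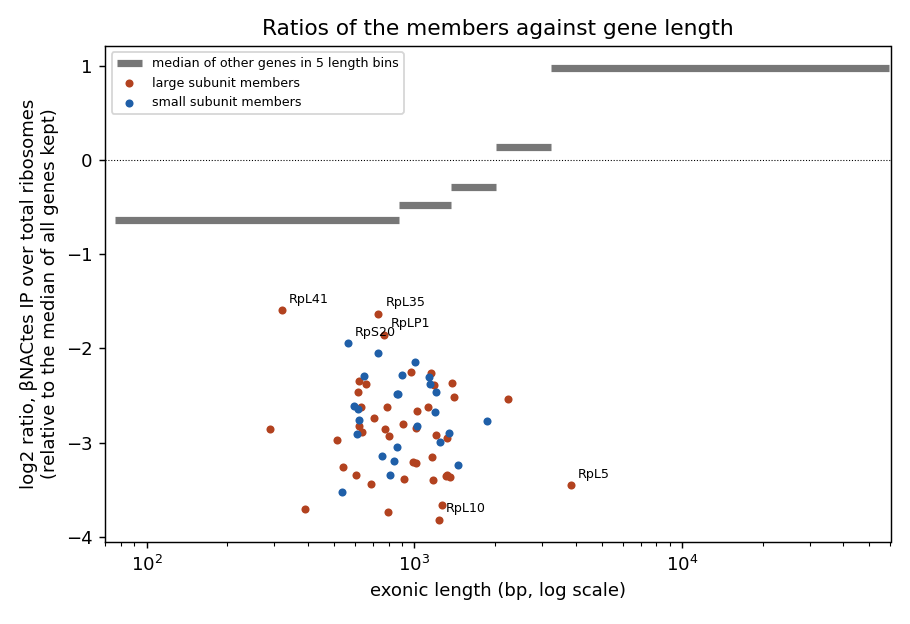
Log2 ratio of the βNACtes IP over total ribosomes, relative to the median of all genes kept (y axis), against exonic length (x axis, bp, log scale). Points are the members by subunit, and grey bars give the median of the other genes in 5 length classes; every member lies below the bar of its class.

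The comparison of the subunits asked whether genes of both had the same place in the βNACtes IP. The relative log2 ratio of large subunit genes had a median of −2.86 (quartiles −3.35 and −2.53), and small subunit genes one of −2.68 (quartiles −2.99 and −2.37). The difference between the medians, large minus small, was −0.18, and that between the means was also −0.18. It was smaller than the SD among the genes of each subunit, 0.54 for the large and 0.42 for the small, and 27 of 43 large subunit genes lay below the median of the small ones. The spread was wider on the large side: 4 large subunit genes were lower than any small subunit gene and 3 were higher than any. Among the 10 lowest ratios 9 belonged to the large subunit, and among the 10 highest 5 did, where large subunit genes were 43 of 68.

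**Figure D3:**
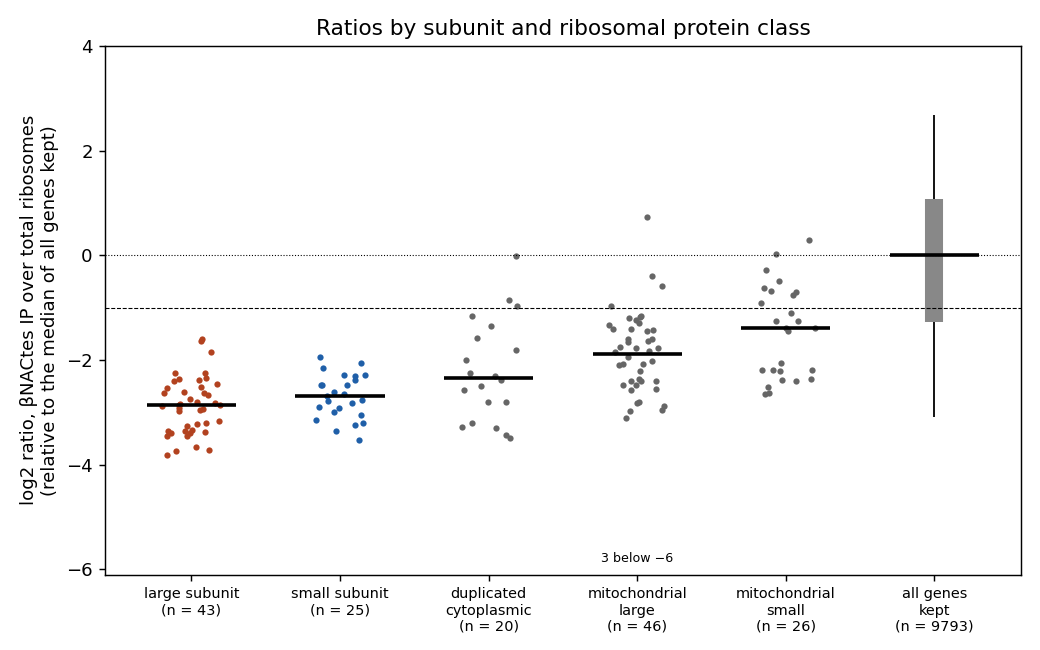
Relative log2 ratio of the βNACtes IP over total ribosomes for each gene of 5 ribosomal protein classes (points, with the median as a line), and for all 9793 genes kept the median, the quartiles (grey bar) and the 5th to 95th percentiles (thin line). The dotted line marks the median of all genes and the dashed line the limit for a gene called lower; 3 mitochondrial genes listed at 0 in the βNACtes IP lie below the range drawn.

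Levels per gene were close between the subunits within each fraction. In the βNACtes IP large subunit genes averaged 522 ± 194 FPKM and small subunit genes 573 ± 213 FPKM (SD over 43 and 25 genes, not over libraries). In total ribosomes the averages were 2369 ± 1087 FPKM for the large and 2352 ± 1076 FPKM for the small subunit. The ratio of the averages, large over small, was thus 0.911 in the IP and 1.01 in total ribosomes. Of the members' summed FPKM, large subunit genes held 61.0% in the IP and 63.4% in total ribosomes.

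The order of the members was kept only in part between the fractions. Levels in the IP against those in total ribosomes had a Spearman's rho of 0.65 over the 68 genes, 0.49 over the 43 large and 0.79 over the 25 small subunit genes, as a description of 2 columns of means. Among the 10 highest members of each fraction only RpS18 and RpS30 were shared, whereas 6 of the 10 lowest were shared, among them RpL15, RpL30, RpL37A, RpL38 and RpS27. The highest member was 7.91 times the lowest in the βNACtes IP and 14.8 times in total ribosomes. The SD of the log2 levels was 0.59 in the IP and 0.71 in total ribosomes, so that members were more alike in level in the IP.

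**Figure D4:**
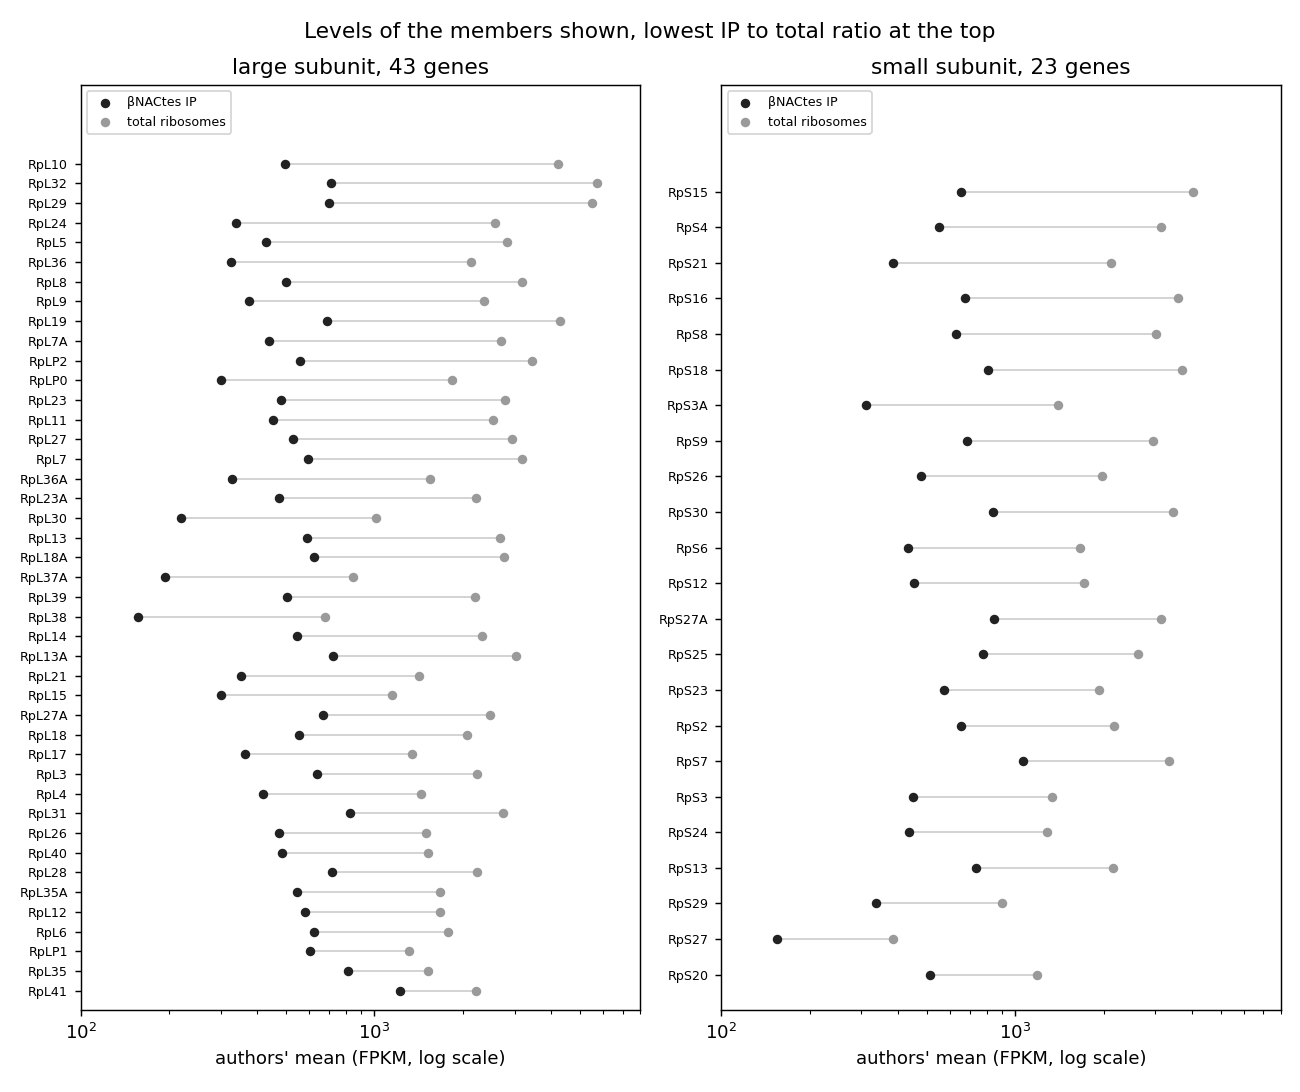
Authors' means of 43 large subunit genes (left) and 23 small subunit genes (right) in the IP (black) and total ribosomes (grey), in FPKM on a log axis, ordered by the ratio with the lowest at the top. In each of the 66 rows the black point lies left of the grey one, and the distance shrinks from RpL10 to RpL41 and from RpS15 to RpS20.

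The lowest ratios of the large subunit belonged to RpL10, RpL32, RpL29, RpL24 and RpL5. RpL10 (FBgn0024733), a protein that joins the large subunit late in its assembly, had 496 FPKM in the βNACtes IP, against 4222 FPKM in total ribosomes, a relative log2 ratio of −3.82. It lies on chromosome 3L from 23093190 to 23095471 on the minus strand of the BDGP6 genome. RpL32, known as rp49 and widely used as a reference transcript in fly work, had 709.6 FPKM in the IP and 5707 FPKM in total ribosomes (−3.74). RpL29, a short basic protein of 76 residues, had 699.8 FPKM in the IP and 5521 FPKM in total ribosomes (−3.71). These last 2 genes were the highest of all members in total ribosomes but not among the 10 highest of the IP. RpL24, which contributes to a bridge between the subunits, had 338 FPKM in the IP and 2578 FPKM in total ribosomes (−3.66), and 21.6% of its exonic bases overlap CG7099 on the other strand.

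At the other end of the large subunit stood RpL41, RpL35, RpLP1, RpL6 and RpL12. RpL41 (FBgn0066084) encodes a peptide of 25 residues, the shortest of the members, and had 1219 FPKM in the βNACtes IP, the highest member value there, and 2221 FPKM in total ribosomes (−1.59). RpL35, a protein at the rim of the tunnel exit encoded on the X chromosome (from 5672401 to 5673547 on the plus strand), had 814 FPKM in the IP and 1517 FPKM in total ribosomes (−1.63). These 2 were the members at −0.86 and −0.90 when the values were taken as deposited, hence not past −1, and in TPM they were at −0.03 and −0.06. RpL6 had 623 FPKM in the IP and 1781 FPKM in total ribosomes (−2.25, and −0.68 in TPM). RpL32 and RpL41 were picked from opposite ends of the ratios, so a large change between them is built in. RpL32 was 0.582 times RpL41 in the βNACtes IP and 2.57 times in total ribosomes.

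In the small subunit RpS15, RpS4, RpS21 and RpS16 were among the 5 genes with the lowest ratios. RpS15 (uS19), of the head of the small subunit, had 654 FPKM in the βNACtes IP and 4016 FPKM in total ribosomes (−3.35). RpS4 had 550.3 FPKM in the IP and 3139 FPKM in total ribosomes (−3.24). Close to these were RpS21, known in flies as oho23B from the overgrown larval blood-forming organs of its mutants, at −3.20, and RpS16 (uS9), whose tail reaches the tRNA in the P site, at −3.14.

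RpS20, RpS27, RpS29, RpS13 and RpS24 had the highest ratios of the small subunit. RpS20 (FBgn0019936), known as uS10, had 512 FPKM in the βNACtes IP and 1183 FPKM in total ribosomes (−1.94), and 44 bp of its exons overlap CG17272 on the other strand. RpS27, a zinc-binding protein, was the lowest member in both fractions, with 154 FPKM in the IP and 385 FPKM in total ribosomes (−2.05). RpS29, with 56 residues the shortest protein of the small subunit members, had 336 FPKM in the IP and 899 FPKM in total ribosomes (−2.15). Both RpS13 (−2.28) and RpS24 (−2.29) lay close to these. In TPM all 5 were between −1 and 0, from −0.37 for RpS20 to −0.72 for RpS24.

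The stalk of the large subunit, where translation factors bind, held both low and high ratios. RpLP0, the anchor of the stalk, had 301 FPKM in the βNACtes IP and 1840 FPKM in total ribosomes (−3.34), and RpLP2 had 559 FPKM in the IP and 3435 FPKM in total ribosomes (−3.35). RpLP1, the partner of RpLP2 in the stalk dimer, had 603 FPKM in the IP and 1312 FPKM in total ribosomes (−1.85). RpL12 (uL11), at the stalk base, had 580.3 FPKM in the IP and 1671 FPKM in total ribosomes (−2.26). RpLP2 mRNA was therefore 0.927 times RpLP1 mRNA in the βNACtes IP and 2.62 times in total ribosomes. The 2 mRNAs were thus near equal in the IP and unequal in total ribosomes, which says nothing of the amounts of the 2 proteins. In TPM RpLP1 was at −0.28 and RpL12 at −0.69, above −1, whereas RpLP0 and RpLP2 stayed below it. Whether the difference between the partners exceeds the spread between libraries cannot be said from 1 mean per group.

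Of the large subunit, 8 listed proteins line the tunnel or surround its exit, the part of the ribosome where NAC and the signal recognition particle bind. The median ratio of their mRNAs was −2.57, against −2.92 for the other 35 large subunit genes and −2.86 for all 43. RpL19, which also reaches a bridge to the small subunit, was the lowest of them (690.3 FPKM in the IP, 4298 FPKM in total ribosomes, −3.37) and RpL35 the highest. RpL23A, which forms the docking site at the exit together with RpL35, had 474 FPKM in the IP and 2212 FPKM in total ribosomes (−2.95). RpL35 was 1.72 times RpL23A in the βNACtes IP and 0.686 times in total ribosomes. For RpL23A the overlaps with other annotated genes, among them the snoRNA host gene Uhg7, sum to 48.4% of the exonic length. Bases shared with several genes count more than once in this sum, and the values of RpL23A are less certain. RpL39, which lies in the tunnel wall, was at −2.86, and the rim protein RpL31 at −2.46 with the second highest large subunit level of the IP (827 FPKM, 2747 FPKM in total ribosomes). The wall proteins RpL17 and RpL4 were at −2.62 and −2.52, and the exit protein RpL26 was at −2.39. Of the 8, RpL35, RpL26, RpL31 and RpL4 were above −1 in TPM.

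RpL5 and RpL11, which enter the ribosome together with 5S rRNA as 1 particle, were close to each other in both fractions. RpL5 had 429 FPKM in the βNACtes IP and 2825 FPKM in total ribosomes (−3.45), and RpL11 had 452 FPKM in the IP and 2537 FPKM in total ribosomes (−3.22). Their level ratio was 0.949 in the IP and 1.11 in total ribosomes. The 2 proteins made as fusions with ubiquitin at their N-terminus, RpS27A and RpL40, likewise had similar level ratios in both fractions, with RpS27A at 1.76 times RpL40 in the IP and 2.06 times in total ribosomes. RpS27A had 850.3 FPKM in the IP, the second highest small subunit level, and 3127 FPKM in total ribosomes (−2.61), and RpL40 had 484.5 FPKM in the IP and 1522 FPKM in total ribosomes (−2.38, and −0.81 in TPM).

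The mRNAs of small subunit proteins at the mRNA entry and the decoding site were narrowly spread in ratio. Among the 5 listed the ratios ranged from −2.83 to −2.30, with a median of −2.48. In TPM RpS3 (−0.73), RpS2 (−0.90) and RpS23 (−0.91) were above −1. RpS3, at the entry of the mRNA channel, had 450.3 FPKM in the βNACtes IP and 1338 FPKM in total ribosomes (−2.30). RpS2, known from the oogenesis mutant string of pearls, was at −2.47 and RpS23, which monitors codon pairing, at −2.48. RpS30, made as a fusion with a ubiquitin-like protein, had 843 FPKM in the IP and 3435 FPKM in total ribosomes (−2.76). RpS9 was at −2.83, but 50.3% of its exonic bases are overlapped by an antisense RNA gene, and whether the counting used strand is not given in the sources used here.

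Beyond these groups, RpS7 had the highest small subunit level in the βNACtes IP, 1065 FPKM, against 3327 FPKM in total ribosomes (−2.37, and −0.81 in TPM). RpS18 (uS13), of the head of the subunit, had 811 FPKM in the IP and 3684 FPKM in total ribosomes (−2.91). The lowest large subunit genes were RpL38, known in the mouse for its part in translating Hox mRNAs, with 157 FPKM in the IP and 681 FPKM in total ribosomes, RpL37A with 194 FPKM in the IP and 848 FPKM in total ribosomes, and RpL30 with 219.9 FPKM in the IP and 1009 FPKM in total ribosomes. All 3 had ratios near the median of the large subunit (−2.84, −2.86 and −2.93), so a low level did not go with an extreme ratio there. It did in the small subunit, where the 3 lowest genes of total ribosomes had the 3 highest ratios. These were RpS27 (−2.05), RpS29 (−2.15) and RpS20 (−1.94). The level in total ribosomes is the denominator of the ratio. RpS3A, the only member on chromosome 4, was among the low small subunit genes of the IP beside RpS27, with 312 FPKM in the IP and 1403 FPKM in total ribosomes (−2.90). The 24 members outside these extremes and groups, 19 of the large and 5 of the small subunit, lay between 299 and 775 FPKM in the IP and between 1146 and 3189 FPKM in total ribosomes, with ratios from −3.45 (RpL36) to −2.34 (RpL35A).

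Hosting of snoRNA genes was shared across both subunits without following the ratio. In the Ensembl release 115 annotation of BDGP6, 25 of the 68 members (36.8%) carry snoRNA genes within their borders on the same strand, 57 in all, whereas 0.54% of the 9258 other protein-coding genes that passed the filter do. Large subunit genes were 14 of these hosts and small subunit genes 11, and RpS7 held the most, 7. The hosts had a median of −2.82 and the other 43 members one of −2.84. The 5′ untranslated region had a median of 67.5 bases in the members, against 121 bases in all protein-coding genes that passed the filter. Between the ratio and the length of the 3′ untranslated region, Spearman's rho was 0.41 over the 25 small subunit genes. Over the 43 large subunit genes it was −0.06, both given as a description. RpL12 and RpL39 are neighbours on chromosome 2R that meet with their 3′ ends (24060378 to 24061860 on the plus strand and 24061853 to 24062431 on the minus strand, 8 shared bases), and their ratios of −2.26 and −2.86 differed by 0.60.

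By chromosome arm, members were spread over 2L (17 genes, median −2.86), 2R (17, −2.91), 3L (13, −2.83), 3R (15, −2.49), X (5, −2.68) and 4 (1). The genes of 3R included RpL32 at −3.74 as well as RpS20, RpS27 and RpS29 with the highest small subunit ratios. On the X chromosome the 5 genes ranged from −3.45 for RpL36 to −1.63 for RpL35, nearly as widely as the whole set. A total of 24 members share exonic bases with another annotated gene, in 9 of them with summed overlaps above 10% of the exonic length. These 24 had a median of −2.82, against −2.83 for the other 44.

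Other ribosomal protein genes of the table gave a wider range than the members. Among these the 20 duplicated cytoplasmic genes, those named with a or b plus RpL22 and RpL22-like, had a median of −2.34 with ratios from −3.50 (RpS14b) to −0.01 (RpL10Aa), and 17 of 20 were called lower, where all 68 members were, and in TPM 7 of 20 were. Their SD was 0.98, against 0.50 in the members. RpL10Aa was the only gene of these 2 classes with a higher level in the βNACtes IP (135 FPKM) than in total ribosomes (81.9 FPKM), whereas its partner RpL10Ab was at −3.29. The small subunit proteins outside the naming rule, sta (611 FPKM in the IP, 2517 FPKM in total ribosomes, −2.77) and Rack1 (566 FPKM in the IP, 1628 FPKM in total ribosomes, −2.26), lay within the range of the small subunit members. The -like genes RpL7-like (−0.54), RpL24-like (−1.01) and RpLP0-like (−1.30), whose yeast counterparts assist ribosome assembly, were all above the highest member, as was RpS28-like (0.63). RpS14a and RpS14b are near-identical copies, as are some other pairs, so how reads were split between them is uncertain.

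Mitochondrial ribosomal proteins, encoded in the nucleus and made on cytoplasmic ribosomes, had a median ratio of −1.80, between that of the members and that of all genes. Single genes ranged from −9.97 to 0.74. The large subunit genes (mRpL, 46) had a median of −1.89 and the small subunit genes (mRpS, 26) one of −1.39, a difference of −0.51. Of these, 42 of 46 and 17 of 26 were called lower, against 29.2% of all genes. In TPM the mRpL median was −0.33 and the mRpS median 0.18, above 0. On that scale 10 of 46 and 2 of 26 were called lower, against 8.75% of all genes, a share that the mRpS genes did not exceed. A total of 3 mRpL genes were listed at 0 in the βNACtes IP, and without them the difference was −0.44. The direction, large below small, was thus the one seen in the cytoplasmic genes, and neither difference could be tested. Mitochondrial genes were lower in level than the members, with medians of 24.9 FPKM in the βNACtes IP and 51.4 FPKM in total ribosomes.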

How the data were processed

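The authors deposited 1 table with a mean FPKM per gene for the 3 βNACtes IP libraries and for the 2 total ribosome libraries, and a column with the log2 of their ratio, which was not used. The submitters' processing notes name TopHat2 2.0.14, Bowtie2, Cufflinks 2.2.1 and the dm3 genome. The table names no unit. FPKM was inferred from Cufflinks and from value times exonic kilobases, which sums to 1109951 in the IP and 1114286 in total ribosomes, while plain sums are 802728 and 1435535. The annotation and how multi-mapping reads were counted are not given in the sources used here. Cufflinks corrects for fragment length, which weighs most on short transcripts such as RpL41.

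Lengths and positions come from Ensembl release 115 of BDGP6. Of the members 64 matched by identifier and 4 by symbol. Coordinates are therefore not those of dm3. No sequences were available here. Groups were taken from the treatment label. With 1 mean per group, depth and precision are unknown and no test was run. The text names the 5 lowest and 5 highest ratios of each subunit, the 3 highest and lowest levels, and listed structural groups (44 members, of which 2 are counted in all summaries but not reported here by name). Members and lists were chosen with earlier results of these data known. Other genes with values were chosen after these were seen. Of 15 elongation factor symbols 1 was found, so that list was not used. The ratio script was tested on simulated data. Alternatives were other scalings, filters and pseudocounts, a length minimum, means, and added genes. Python 3.11.15, numpy 2.4.6, pandas 2.3.3 and matplotlib 3.10.9 were used.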

Additional observations from a re-analysis of the deposited data

How the results depend on the processing

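No paired analysis was possible because the table holds 1 mean per group, and for the same reason no library could be left out. Under 3 other scalings, 2 other filters and a pseudocount of 1, the members' median ratio stayed at or below −1, from −2.96 (no filter) to −1.26 (TPM). Of the 44 members that the rule for named genes picked, 2 were above −1 with values as deposited and 18 in TPM, the highest at −0.03, and none changed sign. The difference of the medians, large minus small, ranged from −0.27, with the 20 duplicated cytoplasmic genes added, to −0.18. It was −0.19 for the 65 members of at least 500 exonic bp and, in alternatives chosen after seeing the data, −0.20 for members without shared exonic bases and −0.18 without the 3 lowest and 3 highest ratios. The 20 highest other genes, among them CG18628, Mst57Db and Acp95EF, took 18.4% of the summed FPKM in the IP and 46.9% in total ribosomes. Without them, also chosen after seeing the data, the members' share was 5.62% in the IP and 21.1% in total ribosomes. By value times exonic length it was 3.14% in the IP and 14.04% in total ribosomes. The large over small ratio of levels stayed between 0.879 and 0.936 in the βNACtes IP and between 0.977 and 1.04 in total ribosomes, so its side of 1 held in the IP and not in total ribosomes. Depth limits could not be given.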
